A study of Mus musculus with 6 samples.

Results

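The protein 4.1, ankyrin and spectrin genes were examined in the hippocampus of mice given an L-DL shRNA or a control shRNA. The 10 genes were Epb41, Epb41l1, Epb41l2, Epb41l3, Ank1, Ank2, Ank3, Sptan1, Sptbn1 and Sptbn4, found by symbol among 52550 genes of the count table. All 10 had counts and passed the filter on low counts. Of the 40961 splicing events listed for the series, 121 lay in 9 of these genes, and Sptbn1 had none.

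Male C57BL/6 J mice received adeno-associated virus with either shRNA in the CA1 area of both hemispheres at 8 weeks of age, and RNA of bulk hippocampus was sequenced for 3 control and 3 L-DL KD libraries. The L-DL virus carried tandem shRNAs, each behind an H1 promoter, against the long isoform of the splicing factor hnRNP DL, beside a fluorescent marker under a CamkIIα promoter. The control virus was injected at a higher titre than the L-DL virus. The labels call the treated mice knockouts in one field and knockdowns in another, and title the control libraries WT (wild type). That the control mice received the control shRNA is taken from the study's methods. Replicate numbers are given without saying whether each library is 1 mouse, so p-values measure the spread between these libraries.

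Spectrins are long rods of α and β subunits that form a periodic lattice with actin under the plasma membrane of axons and dendrites. Ankyrins tie this lattice to channels, transporters and adhesion molecules, and proteins of the 4.1 family join spectrin, actin and membrane proteins through their FERM domain. In neurons the members divide the work: ankyrin G (Ank3) and βIV spectrin (Sptbn4) build the axon initial segment and nodes of Ranvier, ankyrin B (Ank2) serves the axon shaft, and 4.1B (Epb41l3) sits beside the nodes. The transcripts of these genes are cut into many isoforms by short alternative exons and by giant exons found only in neuronal ankyrins.

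The exons below carry the differences in inclusion described further on, or are alike between family members. Each is printed from annotated transcripts (GENCODE M21, GRCm38), 5′ to 3′ on the coding strand, with the exon in capitals and 12 bases of each neighbouring exon in lower case.

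The 36 nt exon of Epb41l3 (exon 14 of transcript Epb41l3-201, chr17:69273882-69273917, plus strand) is the one the study examined. Epb41l1 also has an alternative exon of 36 nt (exon 13 of Epb41l1-201, chr2:156511785-156511820, plus strand), and 17 of the 36 bases were identical to those of Epb41l3 (47.2%).
Epb41l3 36 nt: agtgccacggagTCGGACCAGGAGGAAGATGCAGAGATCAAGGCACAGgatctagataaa
Epb41l1 36 nt: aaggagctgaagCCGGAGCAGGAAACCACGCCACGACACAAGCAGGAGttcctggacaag

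Epb41l3 further has an exon of 75 nt (exon 8 of Epb41l3-207, chr17:69281033-69281107) and one of 123 nt (exon 16 of Epb41l3-201, chr17:69283885-69284007). In these transcripts both stand between the same neighbouring exons, so the letters in lower case are the same in both lines.
Epb41l3 75 nt: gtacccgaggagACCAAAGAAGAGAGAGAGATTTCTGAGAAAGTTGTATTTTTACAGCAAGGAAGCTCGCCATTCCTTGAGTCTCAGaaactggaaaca
Epb41l3 123 nt: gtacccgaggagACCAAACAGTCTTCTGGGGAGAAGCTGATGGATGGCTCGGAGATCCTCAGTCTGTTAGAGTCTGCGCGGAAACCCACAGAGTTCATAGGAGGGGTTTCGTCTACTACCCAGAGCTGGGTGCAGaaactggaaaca

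The 117 nt exon of Epb41l3 (exon 21 of Epb41l3-201, chr17:69287612-69287728, plus strand) holds the end of the coding sequence of that transcript.
Epb41l3 117 nt: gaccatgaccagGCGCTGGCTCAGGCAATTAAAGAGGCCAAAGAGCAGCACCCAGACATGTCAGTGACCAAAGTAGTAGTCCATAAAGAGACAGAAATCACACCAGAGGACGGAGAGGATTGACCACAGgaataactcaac

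Epb41 (exon 15 of Epb41-201, chr4:131962924-131962986, minus strand) and Epb41l2 (exon 13 of Epb41l2-201, chr10:25493567-25493629, plus strand) each have a 63 nt exon, which in 4.1R is known to encode part of the domain that binds spectrin and actin. The 2 exons were identical at 52 of 63 bases (82.5%), with a shared run of 26 bases at their 3′ end.
Epb41 63 nt: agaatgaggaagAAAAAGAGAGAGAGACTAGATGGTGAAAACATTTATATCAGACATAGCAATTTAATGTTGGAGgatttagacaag
Epb41l2 63 nt: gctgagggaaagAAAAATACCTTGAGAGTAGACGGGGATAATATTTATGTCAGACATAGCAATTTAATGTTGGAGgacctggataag

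Ank3 (exon 7 of Ank3-233, chr10:69823078-69823101, plus strand) and Ank2 (exon 7 of Ank2-207, chr3:127052226-127052249, minus strand) hold a 24 nt exon at the same place in their exon order, identical at 19 of 24 bases (79.2%).
Ank3 24 nt: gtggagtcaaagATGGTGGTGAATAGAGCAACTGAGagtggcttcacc
Ank2 24 nt: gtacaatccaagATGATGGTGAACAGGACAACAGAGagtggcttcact

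The shortest named exon, 15 nt of Sptan1 (exon 37 of Sptan1-203, chr2:30014158-30014172, plus strand), belongs to αII spectrin.
Sptan1 15 nt: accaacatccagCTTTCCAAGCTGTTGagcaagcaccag

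Reads counted on genes ranged from 16052529 to 17913064 per library, and junction counts summed over all events from 6760349 to 7939931. Hnrnpdl, the targeted gene, had 2862, 3120 and 2689 counts in control replicates 1 to 3 and 3939, 2680 and 2904 in the libraries labelled L-DL KD, a log2 fold change of 0.03 (SE 0.12, adjusted p = 0.898). The count covers all its isoforms, and no fall was detectable, so the name of the group follows the labels only. Markers of cell types differed between the groups. The summed level of 8 neuron markers was 4374 to 4646 CPM (counts per 1000000 of the TMM-scaled library size) in controls and 2777 to 3212 in L-DL KD, where 7 fell and Nefl rose. For 8 microglia markers it was 1156 to 1435 in controls and 2446 to 3183 in L-DL KD, where all 8 rose. Of 6 CA1 pyramidal and of 6 dentate granule markers 3 each fell, with medians of -0.72 and -0.78 on the log2 scale. Of 6 endothelial markers 3 rose and none fell, from a summed level of 279 to 298 CPM in controls to 339 to 421 in L-DL KD. Of 8 astrocyte markers 2 rose and 3 fell, and of 8 oligodendrocyte markers 1 rose and 1 fell, while choroid plexus markers spread from 428 to 4577 CPM in controls and from 29.0 to 5102 in L-DL KD. No neuron, CA1 or microglia marker was at 0 in any library. In bulk tissue fewer cells of a type and less RNA per cell cannot be told apart, and the part of these shifts in the results on the 10 genes and their partners was not tested.

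Gene levels were compared as CPM after TMM scaling of the libraries, with edgeR's quasi-likelihood test and Benjamini-Hochberg adjustment over 17621 genes. One member rose and 5 fell at an adjusted p under 0.05, where 15.6% of all genes tested rose and 15.0% fell. Epb41l2 rose, Epb41l3, Ank1, Ank3, Epb41l1 and Sptbn4 fell, and Epb41, Ank2, Sptan1 and Sptbn1 did not pass the test. The 2 members of the 4.1 family with the largest changes thus moved in opposite directions, and the common α subunit of spectrin and its main β partner had no detected change. The median log2 fold change was -0.24 over the 10 genes and 0.01 over all genes tested.

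**Figure D1:**
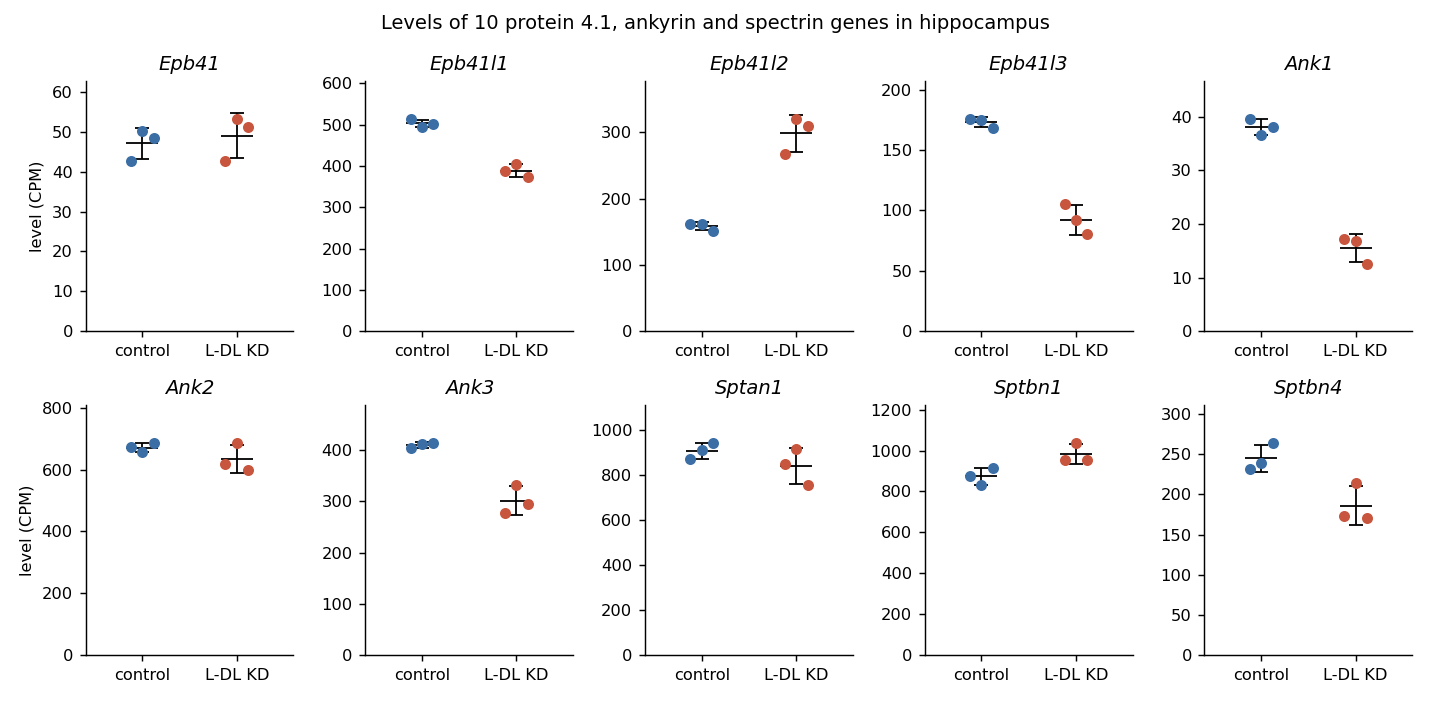
Level in CPM (vertical axis, from 0) of each of the 10 genes in 3 control (blue) and 3 L-DL KD (red) libraries, with the mean and SD in black. Epb41l2 is higher in all 3 L-DL KD libraries, Epb41l3 and Ank1 are lower in all 3, and for Epb41, Ank2 and Sptan1 the groups overlap.

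Among the 4.1 genes, Epb41l3 encodes 4.1B, the paranodal and synaptic adhesion adaptor. Its level was 176, 175 and 169 CPM in control replicates 1 to 3 and 105, 92.0 and 80.2 CPM in L-DL KD replicates 1 to 3. All 3 treated libraries lay far below the controls, at 53.4% of the control mean. The log2 fold change was -0.91 (SE 0.10, adjusted p = 0.000647 by edgeR).

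Epb41l2 encodes 4.1G, the widely expressed member that is also found in glia. Control replicates had 162, 161 and 151 CPM and L-DL KD replicates 267, 320 and 309 CPM. Every treated library exceeded every control, by 1.89-fold on average. The log2 fold change was 0.92 (SE 0.08, adjusted p = 0.00029 by edgeR).

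Epb41l1, the neuronal 4.1N that binds AMPA receptor subunits, had 513, 495 and 501 CPM in controls and 387, 404 and 373 CPM in L-DL KD. The groups did not overlap, and the log2 fold change was -0.37 (SE 0.06, adjusted p = 0.00412 by edgeR). Epb41, the founding 4.1R of red cells, stayed between 42.6 and 53.2 CPM in all libraries. Its groups overlapped, with a log2 fold change of 0.06 (SE 0.11, adjusted p = 0.724 by edgeR).

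Among the ankyrins, Ank1, the ankyrin R first known from red cells, changed most. It had 39.5, 36.6 and 38.1 CPM in controls and 17.2, 16.8 and 12.5 CPM in L-DL KD. The treated libraries kept 40.7% of the control mean and lay well apart, with a log2 fold change of -1.29 (SE 0.14, adjusted p = 0.000524 by edgeR). Of 5 erythroid markers 4 were testable and none of them passed, at a summed level of 4.38 to 6.90 CPM in controls and 7.51 to 12.5 CPM in L-DL KD.

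Ank3, the ankyrin G of the axon initial segment, had 404, 413 and 414 CPM in controls and 277, 333 and 295 CPM in L-DL KD. Its groups did not overlap, and the log2 fold change was -0.44 (SE 0.08, adjusted p = 0.00499 by edgeR). Ank2, the ankyrin B of axon shafts, was at 656 to 687 CPM in controls and 599 to 687 CPM in L-DL KD. For Ank2 the highest treated library reached the highest control, and the log2 fold change of -0.08 (SE 0.08, adjusted p = 0.456 by edgeR) did not pass.

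Among the spectrins, Sptbn4, the βIV subunit of initial segments and nodes, had 231, 239 and 264 CPM in controls and 173, 214 and 171 CPM in L-DL KD. The highest treated library was L-DL KD replicate 2, still below the lowest control. The log2 fold change was -0.40 (SE 0.10, adjusted p = 0.0227 by edgeR). This call was lost without control replicate 2 (adjusted p = 0.0606), control replicate 3 (0.0861) or L-DL KD replicate 3 (0.0593).

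Sptbn1, the βII subunit of the axonal lattice, had 874, 834 and 916 CPM in controls and 953, 1038 and 953 CPM in L-DL KD. All treated libraries were above all controls, yet the log2 fold change of 0.17 (SE 0.07, adjusted p = 0.127 by edgeR) did not pass. Groups that do not overlap were found in 47.1% of all genes tested, and in 7 of the 10 members. Sptan1, the αII subunit that pairs with every neuronal β spectrin, had 873, 910 and 944 CPM in controls and 848, 914 and 756 CPM in L-DL KD, which overlapped (log2 fold change -0.11, SE 0.09, adjusted p = 0.364 by edgeR).

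Levels were compared between genes per kilobase of merged exons. In controls the order was Sptan1 (68.0 ± 2.62 CPM per kb, SD, n = 3), Sptbn1 (50.01 ± 2.34), Epb41l1 (43.6 ± 0.789), Sptbn4 (25.6 ± 1.80), Ank2 (19.2 ± 0.437), Epb41l3 (14.5 ± 0.328), Epb41l2 (13.4 ± 0.530), Ank3 (11.8 ± 0.159), Epb41 (2.95 ± 0.240) and Ank1 (2.82 ± 0.107). Only the neighbours Epb41 and Ank1 overlapped in this order. In L-DL KD Epb41l2 stood in place 4, at 25.2 ± 2.34 CPM per kb, above Sptbn4 (19.4 ± 2.57) and Ank2 (18.1 ± 1.32), while Epb41l3 had fallen to place 8 at 7.75 ± 1.04 CPM per kb. There the ranges of Sptan1 and Sptbn1, of Sptbn4 and Ank2, and of Ank3 and Epb41l3 overlapped. Merged exons count the giant exons of Ank2 and Ank3 in full, although part of their transcripts lack them, so the per-kilobase levels of both genes would be higher with a length that leaves these exons out.

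The genes whose log2 CPM followed that of Epb41l3 most closely over the 6 libraries were Chn1 (Pearson r = 0.9998), Cdk16 (r = 0.999) and Rapgef4 (r = 0.999). All 6 libraries enter each value, and the split into 2 groups is shared by every gene that differs between them, so these values are a description only. Among the other members, Ank1 was most like it (r = 0.993) and Epb41l2 most unlike it (r = -0.981).

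Inclusion was described as PSI, the share of transcripts with a segment, from the junction counts of the form with it and the form without it, each divided by its effective length. The splicing table gives 3 libraries a group without replicate numbers, which are therefore quoted in the order listed. A PSI change is L-DL KD minus control. Of the 121 events, 90 were skipped exons, 14 were choices between 2 exons, 12 were alternative 3′ splice sites, 2 were alternative 5′ splice sites and 3 were retained introns. The events fell into 103 distinct segments, and events of 1 gene share junction reads.

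Most skipped exons of the members had a length that keeps the reading frame. Of their 73 distinct skipped exons, 64 had a length divisible by 3 (87.7%), against 42.2% of the 26009 distinct skipped exons of all genes. Their lengths ran from 12 to 7674 nt with a median of 99 nt. In Ank2, 7 of 18 skipped exons were exactly 99 nt long, a length held by 0.904% of the skipped exons of all genes and known as that of 1 ankyrin repeat.

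Inclusion was tested with edgeR's quasi-likelihood test on both forms' counts, for events that averaged 20 counts or more a library and 1 or more of each form. Of 73 member events tested, none passed an adjusted p of 0.05, where 0.255% of 18829 events did. At an unadjusted p under 0.001 there were 2, both in Epb41l3, against 0.977% of all events (184). At an unadjusted p under 0.05 there were 23, with 9 changes up and 14 down, against 13.3% of all events (2496). With limma on the log2 ratio of the forms, none of the 73 passed the adjustment and 14 had an unadjusted p under 0.05.

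The filter on counts decided the adjusted result. With at least 50 counts a library and 5 of each form, 9 of 48 member events passed an adjusted p of 0.05, where 5.87% of 8584 events did. Of the 9, 6 lay in Epb41l3, 2 in Epb41l1 and 1 in Sptan1. The groups did not overlap in 26 of the 73 events, against 18.4% of all events tested. In 15 of these the PSI also changed by at least 0.1, against 8.26% of all. The median PSI change was -0.01 for the 73 events and -0.002 for all events tested, and the median size of the change was 0.0470 and 0.0297.

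**Figure D2:**
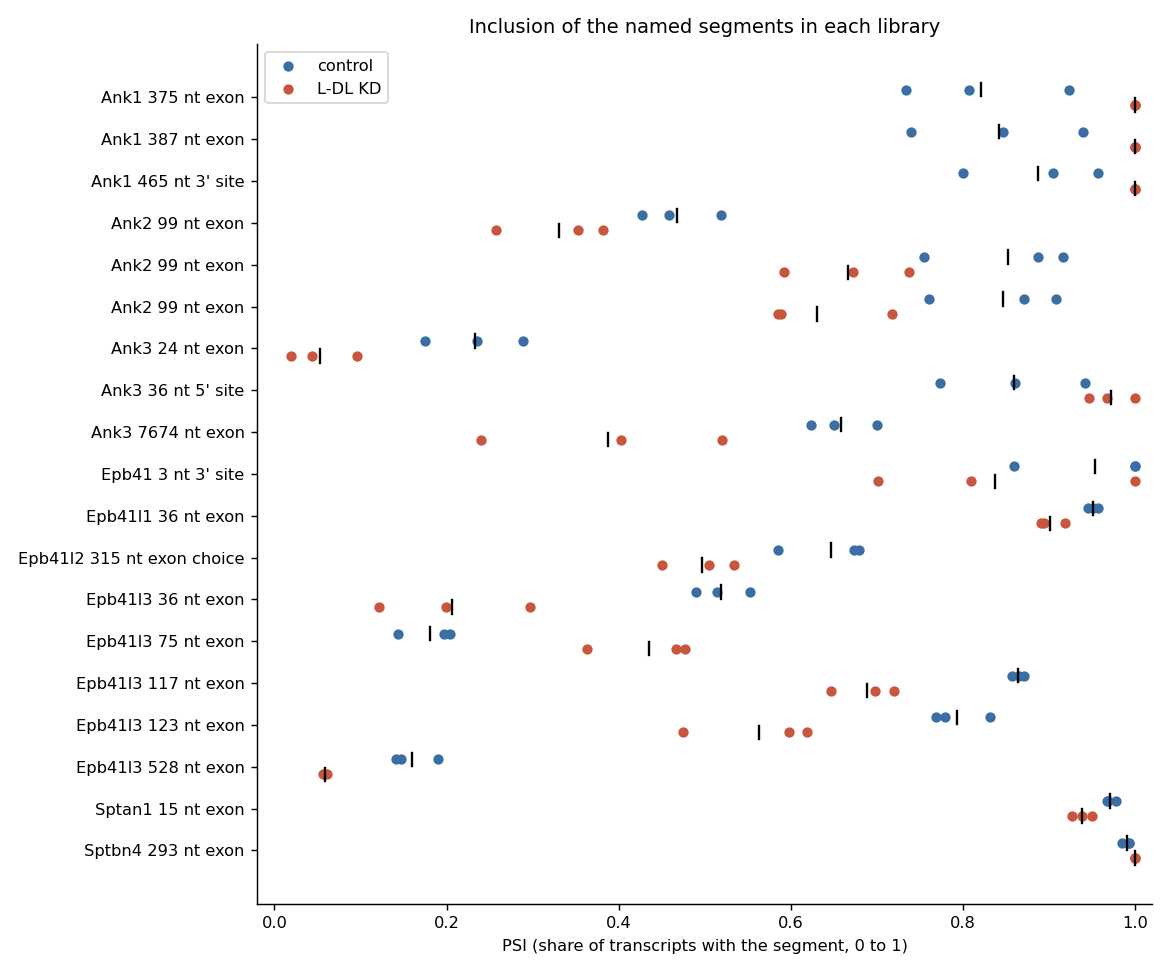
PSI (horizontal axis, 0 to 1) of 19 segments of the members in 3 control (blue) and 3 L-DL KD (red) libraries, with group means as black bars. Segments named by the smallest p of their gene, by an unadjusted p under 0.001, or by a PSI change of at least 0.1 with groups apart are shown, and the Epb41l3 exons of 36 and 75 nt move in opposite directions.

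Among tested events of the members, the 36 nt exon of Epb41l3 had the largest PSI difference. Its PSI was 0.514, 0.490 and 0.553 in the control libraries and 0.297, 0.199 and 0.121 in the libraries labelled L-DL KD. No treated library came near the controls. The PSI change was -0.313, and the log2 ratio of the forms changed by -2.05 (SE 0.42, unadjusted p = 0.000357, adjusted p = 0.0688 by edgeR, or 0.0078 with the stricter count filter).

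The 2 forms of this exon can be counted apart. Scaled to 1000000 junction counts a library (junction CPM), the form with the exon was at 21.2 ± 1.24 in controls and 5.09 ± 2.87 in L-DL KD (SD, n = 3), or 23.9% of control. The form without it was at 15.97 ± 1.16 in controls and 14.9 ± 1.65 in L-DL KD, or 93.6% of control. Thus the lower count of the gene was accompanied by fewer junction reads with the exon, while those without it overlapped between the groups.

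The 117 nt exon near the end of Epb41l3 had a PSI of 0.864, 0.857 and 0.871 in controls and of 0.646, 0.720 and 0.698 in L-DL KD. The controls lay within a narrow band, and all treated libraries were below it. The PSI change was -0.176 (log2 ratio -1.54, SE 0.31, unadjusted p = 0.000312, adjusted p = 0.0668 by edgeR, or 0.00543 with the stricter filter). Junction counts with the exon were at 41.8% of control and those without it at 123%.

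The 123 nt exon had a PSI of 0.769, 0.831 and 0.779 in controls and 0.598, 0.618 and 0.474 in L-DL KD, a PSI change of -0.229 (adjusted p = 0.127 by edgeR, 0.0184 with the stricter filter). The 75 nt exon, measured where the 123 nt exon follows it, went the other way. Its PSI was 0.197, 0.204 and 0.143 in controls and 0.466, 0.363 and 0.477 in L-DL KD, a PSI change of 0.254 (adjusted p = 0.129, 0.0184 with the stricter filter). These events share the junction that joins the 192 nt exon upstream to the 123 nt exon, which counts as skipping of the former and inclusion of the latter. That junction was at 30.9% of control, whereas the junctions with the 75 nt exon stayed at 5.11 ± 1.501 and 5.27 ± 1.14 junction CPM, so its higher PSI came with fewer reads that skip it. Where the 75 nt exon was measured against the next exon downstream, its PSI change was -0.02 (unadjusted p = 0.744) and its groups overlapped.

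A long exon of Epb41l3, of 528 nt (exon 8 of Epb41l3-205, chr17:69265905-69266432), had a PSI of 0.141, 0.147 and 0.191 in controls and 0.0605, 0.0571 and 0.0570 in L-DL KD. The treated libraries were close to each other and below every control. The PSI change was -0.101 (adjusted p = 0.102 by edgeR, 0.0121 with the stricter filter). Both its forms had fewer reads, at 22.3% of control with the exon and 67.5% without it.

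**Figure D3:**
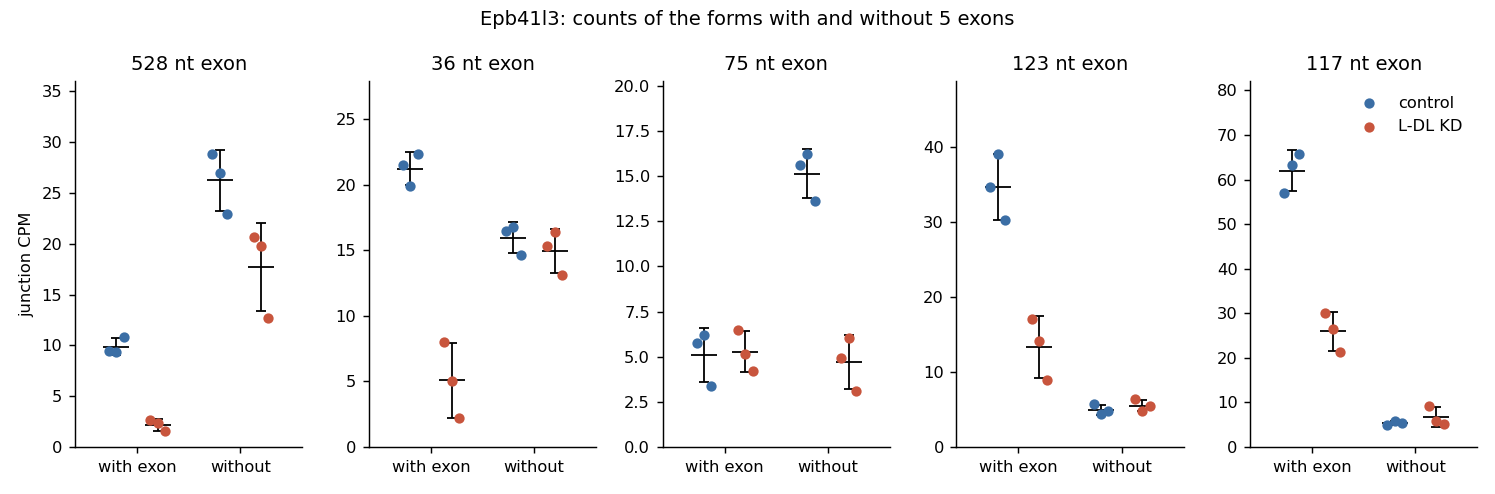
Junction CPM (vertical axis, from 0) of the Epb41l3 forms with and without 5 exons, in order along the gene, for 3 control (blue) and 3 L-DL KD (red) libraries with mean and SD. For the 36, 117 and 123 nt exons the form with the exon is at 23.9%, 41.8% and 38.6% of control while the form without it overlaps between the groups.

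In Epb41l1 the 2 exons that passed under the stricter filter had lower PSI in L-DL KD, by less than the 36 nt exon of Epb41l3. PSI of its 36 nt exon was 0.945, 0.951 and 0.957 in controls and 0.890, 0.919 and 0.894 in L-DL KD, a PSI change of -0.05 (unadjusted p = 0.00399, adjusted p = 0.162 by edgeR, 0.0274 with the stricter filter). Both groups were tight and did not overlap, on 444 to 663 counts a library. PSI of the 408 nt exon changed by -0.03 (adjusted p = 0.173, 0.034 with the stricter filter).

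In Epb41l2 the choice between a 315 nt exon (chr10:25501824-25502138) and the 123 nt exon after it leaned more to the latter in every treated library. The share with the 315 nt exon was 0.679, 0.586 and 0.674 in controls and 0.534, 0.504 and 0.450 in L-DL KD, with no overlap and a PSI change of -0.150 (unadjusted p = 0.0139, adjusted p = 0.262 by edgeR). Both forms had more junction counts in L-DL KD, 128% of control with the 315 nt exon and 235% with the 123 nt exon. The 63 nt exon of Epb41l2 gave PSI of 0.585 to 0.697 in controls and 0.521 to 1 in L-DL KD on 11 to 42 counts a library, and the 63 nt exon of Epb41 gave 0.0640 to 0.476 and 0.145 to 0.350 on 16 to 67 counts. For both paralogous exons the groups overlapped, and no difference was detectable at this depth.

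Epb41 was thinly covered, with 3 of its 10 events tested. Its smallest p was that of a 3′ splice site shifted by 3 nt (unadjusted p = 0.24, adjusted p = 0.663 by edgeR). PSI there was 0.860, 1 and 1 in controls and 0.701, 0.809 and 1 in L-DL KD, which overlapped.

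In Ank3 the 24 nt exon had the smallest p. Its PSI was 0.289, 0.235 and 0.174 in controls and 0.0436, 0.0957 and 0.0193 in L-DL KD. The groups lay apart, although on 40 to 101 counts a library, and the PSI change was -0.180 (unadjusted p = 0.00708, adjusted p = 0.206 by edgeR, 0.0507 with the stricter filter). Its paralogous 24 nt exon in Ank2 had a PSI of 0.714, 0.727 and 0.797 in controls and 0.694, 0.642 and 0.634 in L-DL KD. There too every treated library was below every control, with a PSI change of -0.09 that did not pass (unadjusted p = 0.17, adjusted p = 0.587 by edgeR). The Ank2 exon was singled out for its likeness to that of Ank3 after its values were seen.

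The giant exon of Ank3, 7674 nt long (exon 6 of Ank3-244, chr10:69986089-69993762), belongs to the large ankyrin G isoforms of initial segments and nodes. PSI was 0.623, 0.700 and 0.650 in controls and 0.240, 0.520 and 0.402 in L-DL KD, a PSI change of -0.270 (unadjusted p = 0.0172, adjusted p = 0.282 by edgeR). The treated libraries spread widely but lay below the controls. Junction counts with the giant exon were at 46.8% of control and those that skip it at 160%. A 2550 nt exon overlapping it, measured against the same skipping junction, had a PSI change of -0.130 with groups that overlapped (unadjusted p = 0.123).

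In Ank2 the corresponding giant exon of 6198 nt (exon 38 of Ank2-207, chr3:126941610-126947807), which marks the axonal ankyrin B isoform, had a PSI of 0.305, 0.324 and 0.316 in controls and 0.258, 0.239 and 0.216 in L-DL KD. The groups did not overlap, and the PSI change was -0.08 (unadjusted p = 0.0533, adjusted p = 0.385 by edgeR). Junction counts with it were at 71.2% of control and those without it at 104%. This exon was also picked after its values were seen.

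In Ank2, 3 exons of 99 nt were lower in every treated library. The exon at chr3:127029475-127029573 (exon 13 of Ank2-203) had a PSI of 0.907, 0.871 and 0.760 in controls and 0.717, 0.585 and 0.588 in L-DL KD, a PSI change of -0.216 (unadjusted p = 0.0148, adjusted p = 0.267 by edgeR). Its neighbour at chr3:127029219-127029317 shares the skipping junction with it, so their changes of -0.216 and -0.185 rest in part on the same reads. For both exons the skipping reads were at 1.02 ± 0.659 junction CPM in controls and 3.63 ± 0.948 in L-DL KD. The third exon, at chr3:127012673-127012771, had a PSI of 0.519, 0.427 and 0.458 in controls and 0.258, 0.353 and 0.381 in L-DL KD, a PSI change of -0.137 (unadjusted p = 0.049, adjusted p = 0.375 by edgeR).

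Other ankyrin segments had higher PSI in L-DL KD. A 5′ splice site that adds 36 nt to an Ank3 exon (chr10:69982162-69982197) had a PSI of 0.774, 0.942 and 0.860 in controls and 1, 0.947 and 0.968 in L-DL KD, a PSI change of 0.113 (unadjusted p = 0.0355, adjusted p = 0.35 by edgeR). The form without these 36 nt had 9, 2 and 5 reads in controls and 0, 2 and 1 in L-DL KD. The form with them uses the junction that skips the giant exon of Ank3. This rise and the fall of the giant exon thus rest in part on the same reads. In Ank1 a segment that starts at chr8:23132097 was skipped in 3, 1 and 6 reads of the control libraries and in none of the libraries labelled L-DL KD. It ends at 3 alternative places and was listed as 3 events with the same skipping reads, of which the exon of 375 nt had the smallest p (unadjusted p = 0.042, adjusted p = 0.362 by edgeR). With 0 of 42 counts in L-DL KD against 10 of 92 in controls, counting error alone allows up to 7.14% skipping reads. On the PSI scale the limit is higher, since the effective length is 149 without the segment and 298 with it.

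PSI differences of the spectrin exons were small. The 15 nt exon of Sptan1 had a PSI of 0.968, 0.977 and 0.968 in controls and 0.938, 0.950 and 0.926 in L-DL KD. On 562 to 766 counts a library the groups did not overlap, and the PSI change was -0.03 (unadjusted p = 0.00499, adjusted p = 0.179 by edgeR, 0.034 with the stricter filter). Skipping reads were at 188% of control, and reads with the exon at 86.5%. The only listed event of Sptbn4, a 293 nt exon (exon 33 of Sptbn4-201, chr7:27361567-27361859), was skipped in 2, 2 and 4 control reads and in 0 of 1199 counts of L-DL KD (unadjusted p = 0.0182, adjusted p = 0.288 by edgeR). Counting error alone allows up to 0.250% skipping reads in L-DL KD, on counts not divided by form length. PSI was above 0.98 in every library of both groups.

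Of 11 tested skipped exons of 51 nt or less in the members, 9 had a negative and 2 a positive PSI change, with a median of -0.05. The negative share was 81.8%, against 68.3% of the 1405 tested skipping events of this length in all genes. None of the 11 passed the adjusted test, against 14 of the 1405. With the stricter count filter 3 of 9 passed, against 136 of 641 in all genes. Among all 48 tested skipping events of the members, which cover 44 distinct exons, 32 were negative and 16 positive. Over all event types, 45 of 73 member events and 9923 of 18829 events of the series were negative. The 2 positive short exons were the 36 nt exon of Ank2 (PSI change 0.107, unadjusted p = 0.0417, groups overlapping) and a 51 nt exon of Sptan1 (PSI change 0.003, unadjusted p = 0.814).

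**Figure D4:**
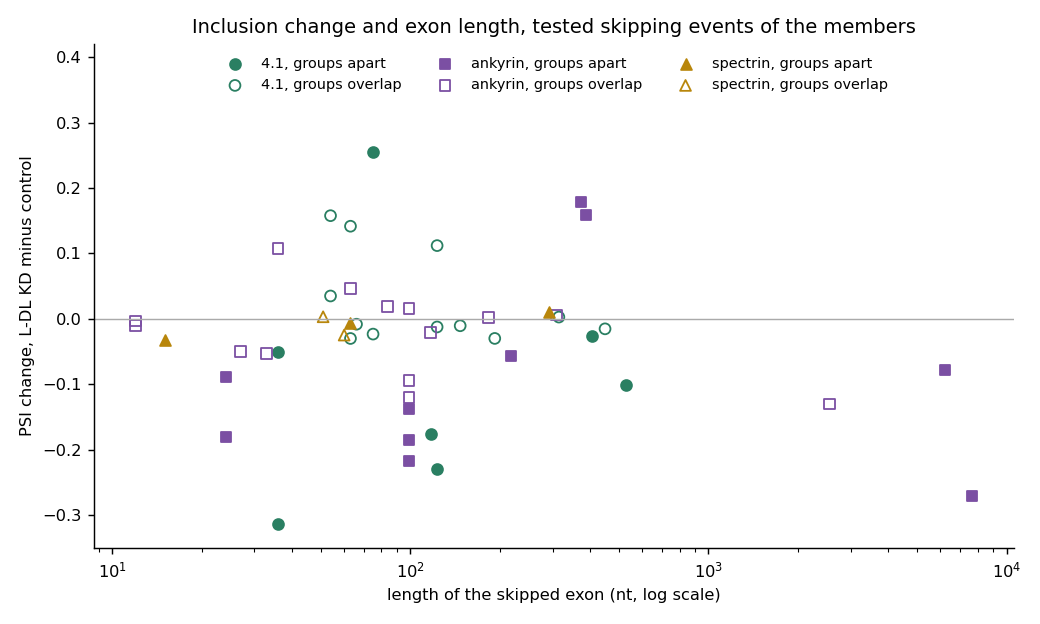
PSI change, L-DL KD minus control (vertical axis), of the 48 tested skipping events of the members (44 distinct exons) against exon length in nt (horizontal log axis), by family and filled where the groups do not overlap. The 36 nt exon of Epb41l3 (-0.313) and the 7674 nt exon of Ank3 (-0.270) lie lowest, and 9 of the 11 exons of 51 nt or less lie below 0.

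Partners of these proteins were read from the same expression test, in which 15.6% of all genes rose and 15.0% fell. Of 26 genes of the axon initial segment and nodes, 1 rose, 13 fell and 12 did not pass, with a median log2 fold change of -0.25. The median was -0.56 for the 8 neuron markers, and their part in the values of these neuronal genes was not tested. Scn4b, a β subunit of voltage-gated sodium channels, fell from 23.1, 24.5 and 23.2 CPM to 4.49, 6.36 and 4.14 CPM (log2 fold change -2.24, SE 0.18, adjusted p = 0.000193 by edgeR). Cntnap2, the Caspr2 that anchors juxtaparanodal potassium channels together with 4.1B, fell from 94.0, 76.7 and 83.6 CPM to 28.9, 23.1 and 19.8 CPM (log2 fold change -1.82, SE 0.14, adjusted p = 0.000192 by edgeR). In both genes no treated library came near the controls. The gene that rose was the potassium channel Kcna1 (log2 fold change 0.39), named after its value was seen.

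Of 17 membrane partners of 4.1 proteins, 1 rose, 8 fell and 8 did not pass, with a median log2 fold change of -0.31, beside 15.6% and 15.0% of all genes and the median of -0.56 for neuron markers. Cadm2, a SynCAM adhesion molecule that binds 4.1B, fell from 177, 194 and 196 CPM to 110, 101 and 97.1 CPM (log2 fold change -0.88, adjusted p = 0.000266 by edgeR). Nrxn3, a presynaptic neurexin, fell from 165, 144 and 155 CPM to 97.0, 109 and 62.7 CPM (log2 fold change -0.79, adjusted p = 0.0136 by edgeR). The groups lay apart in both. The MAGUK gene Mpp3, named after its value was seen, was the one that rose (log2 fold change 0.69).

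Of 17 further family genes, 15 were tested, 1 rose, 5 fell and 9 did not pass, against 15.6% and 15.0% of all genes, with a median log2 fold change of -0.18. Tmod1, a cap of the slow end of actin filaments in the spectrin lattice, rose from 15.9, 19.1 and 20.1 CPM to 45.2, 41.0 and 34.0 CPM (log2 fold change 1.13, adjusted p = 0.00104 by edgeR). All 3 treated libraries stood apart from the controls.

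The calpain list holds genes of calpain subunits, among them proteases that cut spectrin, and of their inhibitor. Of its 6 genes, 3 rose and none fell, where 15.6% of all genes rose, with a median log2 fold change of 0.31. All 8 microglia markers (median log2 fold change 1.08) and 3 of 6 endothelial markers rose in the same libraries, and their part was not tested. Capn2 rose by a log2 fold change of 0.53 (adjusted p = 0.0108 by edgeR) and Capn1 by 0.47 (adjusted p = 0.00863), and the third was their shared small subunit Capns1 (0.34), named after its value was seen. The inhibitor Cast, at a log2 fold change of 0.28, did not pass (adjusted p = 0.136 by edgeR). Of 9 ankyrin-bound transporters and channels none rose, 1 fell and 8 did not pass, with a median log2 fold change of -0.10. The 1 call was lost when any 1 control replicate or L-DL KD replicate 2 was left out.

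**Figure D5:**
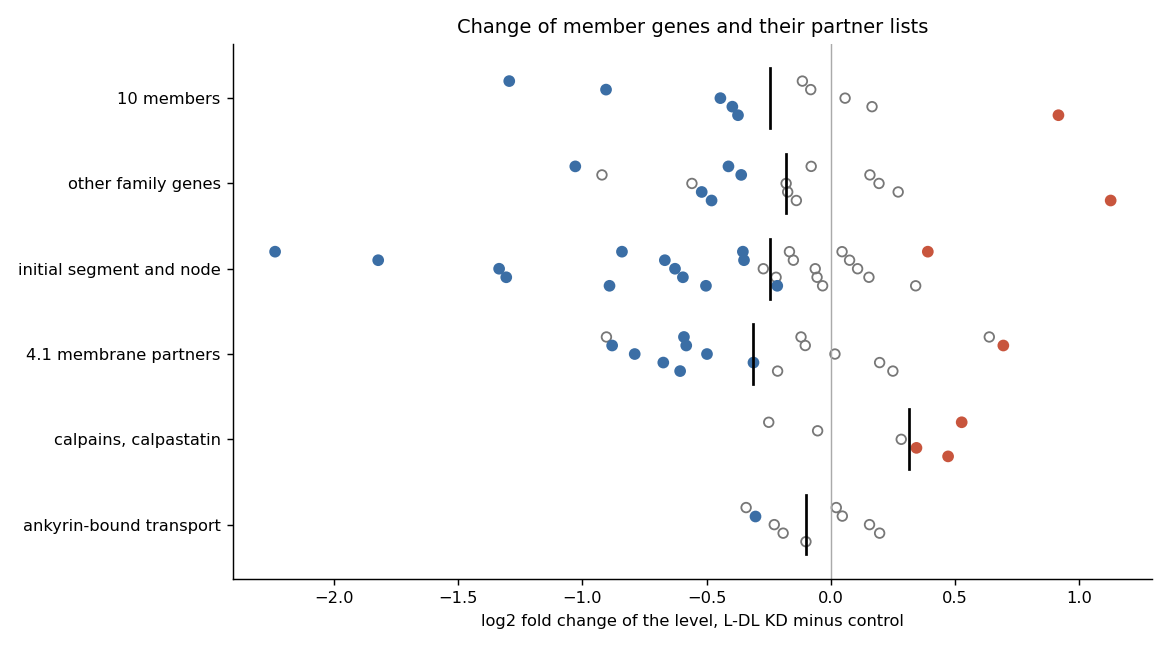
Log2 fold change of the level, L-DL KD minus control (horizontal axis), of the tested genes among the 10 members and 5 lists of partners, filled where called higher (red) or lower (blue) and open where not called, with list medians as black bars. The medians lie between -0.31 and -0.10 for the members and 4 of the lists, and at 0.31 for the calpains.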

How the data were processed

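The count table that the authors deposited holds raw counts of reads on Ensembl genes, and their splicing table the junction counts of rMATS v4.1.0 (GRCm38) for 5 event types, with form lengths. The submitters' processing notes list HISAT2 2.1.0, Bowtie 1.1.2 and HTSeq 0.6.1. Whether counting used strand is not given in the sources used here. The deposited p-value, FDR and inclusion-level columns hold the authors' own comparison and were not used. Members and lists were chosen with earlier results of these data known.

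Counts were fitted with edgeR 4.0.16 in R 4.3.3, with TMM, on genes reaching 10 counts in 3 or more libraries. Events were fitted on 2 columns a library, 1 for each form, with an effect for each library. Group 1 of the splicing table was taken as L-DL KD, as in the study's definition of the PSI change. Over 4212 genes each library's junction counts followed the gene counts of 1 library of that group (r of at least 0.852, and at most -0.415 with the other group). Both fits were tested on simulated data. DESeq2 1.42.0 and limma 3.58.1 (pseudocount 0.5) were alternatives, with other filters and scaling, a replicate block and each library left out. Named were all 10 genes, events past an unadjusted p of 0.001, the smallest p of each gene, changes of at least 0.1 with groups apart, the studied Epb41l3 exon, and the 2 largest calls of each list, of which some are not reported here. Sequences came from GENCODE M21 transcripts. Intervals and floors of 3 counts cover counting error only.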

Additional observations from a re-analysis of the deposited data

How the results depend on the processing

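Of the 10 genes, 1 was higher and 5 lower with DESeq2, scaling by library size, no filter on low counts and the replicate block, and 5 or 6 were called with a library left out. The log2 fold change of Epb41, which never passed the test, turned to -0.0112 without control replicate 1 and ranged up to 0.149 with a library left out. Genes called over the series numbered 5379 and ranged from 3498 to 6477 with a library left out. Replicate numbers did not pair the libraries (correlations of deviations of same-numbered libraries 0.0801, 0.1992 and -0.2242, and only control replicate 1 and L-DL KD replicate 2 were most like their own number). The replicate block gave 2311 higher and 2324 lower genes and changed no member's call, but left 0 of the ankyrin-bound transporters and channels called in place of 1. That list ranged from 0 to 4 calls with a library left out. The splicing columns carry no replicate numbers, so no block was fitted for events.

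Member events called were 0 in all fits except 9 with at least 50 counts and 5 of each form, and 0 to 1 with a library left out, where the 36 nt exon of Epb41l3 passed without the L-DL KD library listed first (adjusted p = 0.044). Over the series 48 events were called, 504 with at least 50 counts and 5 of each form, 0 with limma (2469 at an unadjusted p under 0.05) and 0 to 52 with a library left out. Named PSI changes kept their direction under the alternatives run. Depth limited Ank1 and Epb41, whose tested events had a median of 25.5 and 33.5 counts a library.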
